A study of Mus musculus with 4 samples.

Results

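The lysosome genes described here were 62 rows of a table of gene expression in mouse acute myeloid leukaemia cells, out of 24497 gene rows in all. They were 36 genes listed by name and 26 genes whose symbols begin with Atp6v0, Atp6v1 or Atp6ap. The leukaemia cells were made with 2 oncogenes, NRAS and AE9a (a truncated isoform of the AML1-ETO fusion), in haematopoietic stem cells from bone marrow. Marrow of Tet2-/- mice with a deleted exon 3 gave the Tet2 KO cells, and marrow of wild-type mice gave the WT cells. Tet2 encodes a dioxygenase that oxidises 5-methylcytosine. Both genotypes carried both oncogenes and grew in RPMI 1640 under selection with puromycin at 2 µg/ml and G418 at 1 mg/ml, with murine SCF (stem cell factor) at 50 ng/ml and with 10 ng/ml of IL-3 and of IL-6. There were 2 libraries of each genotype. The age of the mice, the vectors and the number of independent lines were not stated. Since no label calls the 2 libraries of a genotype separate cultures, p-values cover only the spread among these 4 libraries, and that spread may be technical.

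Lysosomes are acid compartments in which proteins, glycans, lipids and nucleic acids are broken down. The vacuolar proton pump, or V-ATPase, acidifies them: its V1 sector hydrolyses ATP on the cytosolic side and its V0 sector carries protons across the membrane. Cathepsins and other hydrolases work at that acid pH, heavily glycosylated membrane proteins line the organelle, and the transcription factors TFEB and TFE3 bind a short palindromic element in the promoters of many of these genes. Myeloid cells use lysosomal proteases to process antigens and granule proteins.

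Values were deposited as TPM (transcripts scaled for length to a fixed library total), from which the sequencing depth cannot be read. ERCC spike-in RNAs took 5.48 and 5.33% of the Tet2 KO libraries and 4.38 and 4.43% of the WT libraries. Tet2 itself stood at 16.98 and 16.95 TPM in Tet2 KO and at 16.62 and 16.98 TPM in WT. This gene-level value holds the reads of all exons and does not check the deletion of exon 3. The genotypes were compared with limma on log2(TPM + 1) over the 11452 genes that reached 1 TPM in at least 2 libraries, and a gene is called higher or lower at a Benjamini-Hochberg adjusted p under 0.05. Of all genes tested, 54.4% were called higher and 19.5% lower in Tet2 KO. The share called in either direction was 73.9%. Over all genes the log2 fold change had a median of 0.23 on this scale, so results are also given on median-scaled values (divided by a median-ratio factor of each library), where the median of all genes is -0.00389. On that scale 32.7% of all genes were higher, 34.8% lower and 67.5% called in either direction. With scaling to the spike-ins 29.6% were higher, 37.8% lower and 67.4% called in either direction.

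More lysosome genes were called lower than higher in Tet2 KO, although among all genes more were called higher. Of the 62 members, 55 were tested, with 12 called higher, 23 lower and 20 not called. With median-scaled values 4 were higher and 43 lower, and with spike-in scaling 3 were higher and 43 lower. Quantile normalization gave 8 higher and 29 lower. The median log2 fold change was -0.09 over these members and 0.23 over all genes, and 45 of the 55 lay below the median of all genes. By role, 9 of 12 cathepsin and legumain genes and 10 of 19 tested V-ATPase genes were lower. Other hydrolases and cofactors went both ways, with 6 higher and 4 lower of 18, and Tfeb and Tfe3 were not called. The RNA of all members summed to 17970.2 and 18374 TPM in Tet2 KO libraries, against 20167.5 and 20100.5 TPM in WT libraries. This sum leaves out lysosome genes outside the members, whose sum was higher in Tet2 KO (given below). These counts and sums include a processed pseudogene, Atp6v0c-ps2, at 596 and 520.3 TPM in Tet2 KO and at 1120.2 and 1112 TPM in WT. In bulk RNA, fewer cells of a type and less RNA per cell cannot be told apart.

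**Figure D1:**
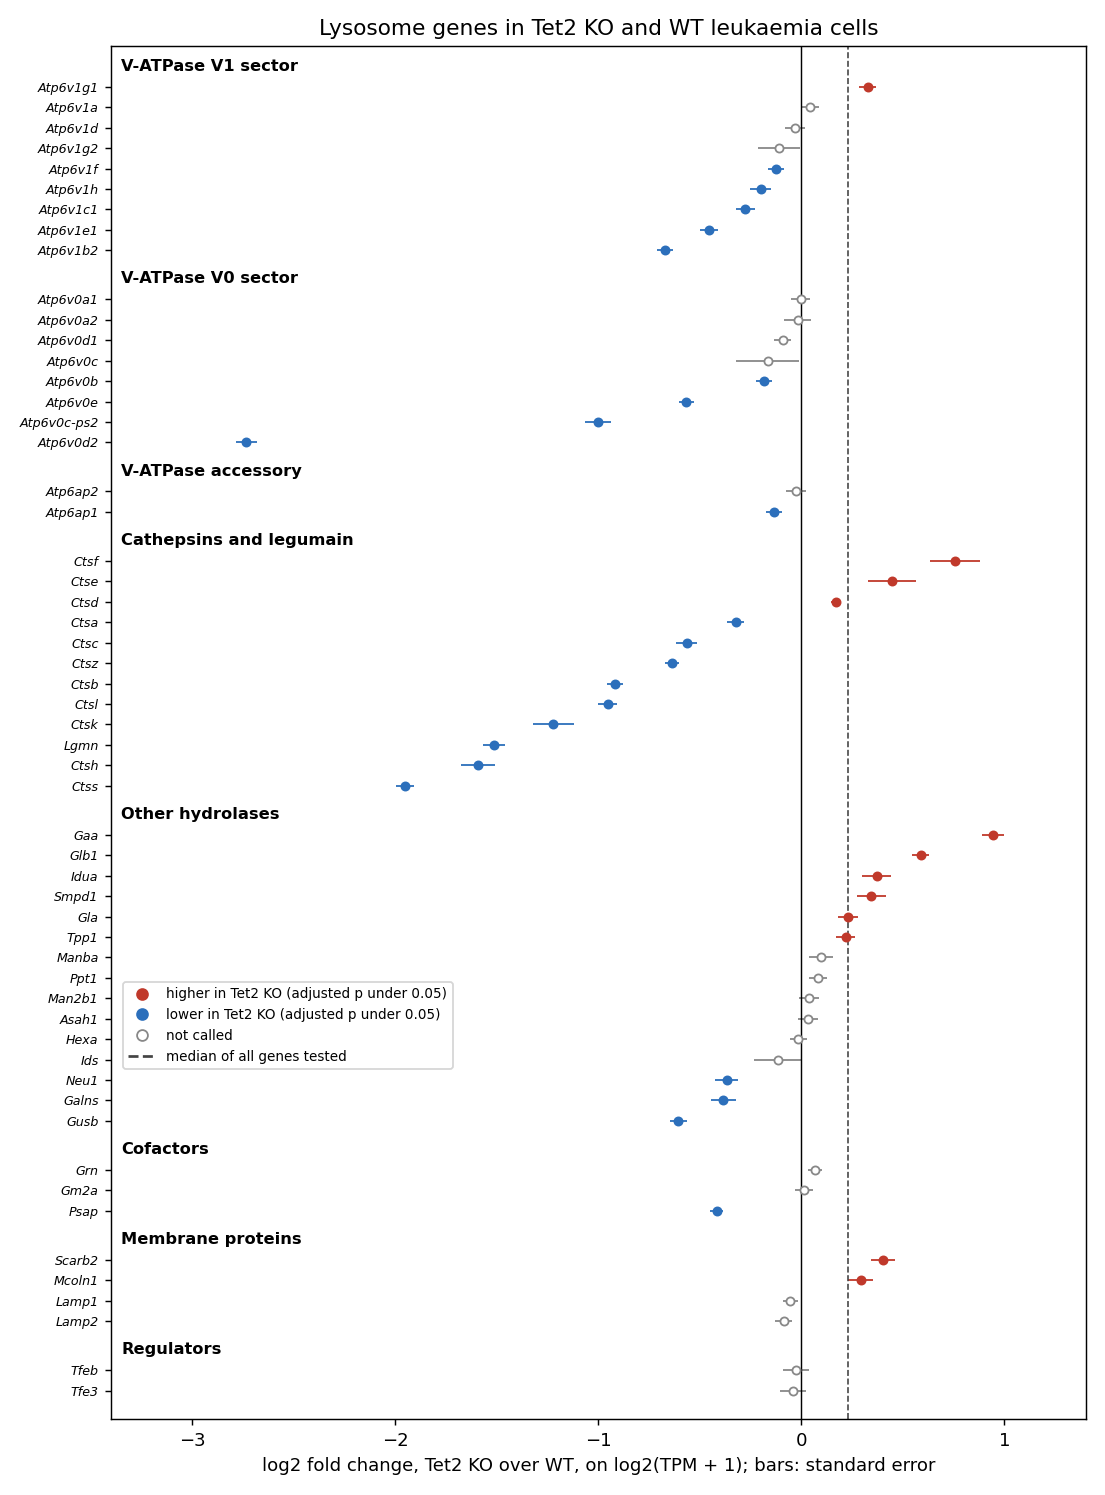
Log2 fold change of the 55 tested lysosome genes, Tet2 KO over WT, on the log2(TPM + 1) scale, grouped by role. Points are the fitted values and bars their standard errors, red for genes called higher, blue for genes called lower and open grey for genes not called, and the dashed line is the median of all genes tested, 0.23. Most cathepsin genes lie well left of 0, and the hydrolases lie on both sides. Of the proton pump genes Atp6v0d2 lies farthest left at -2.73 and Atp6v1g1 farthest right at 0.33.

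Neither regulator was called on the deposited scale. Tfeb (chromosome 17, 47737030 to 47792419, plus strand, mm10), which encodes the basic helix-loop-helix factor TFEB, stood at 23.0 and 22.4 TPM in Tet2 KO and at 23.2 and 23.0 TPM in WT (log2 fold change -0.03, SE 0.063, limma adjusted p = 0.706). Tfe3 (chromosome X, 7762560 to 7775202, plus strand, mm10), which encodes its relative TFE3, stood at 34.8 and 39.2 TPM in Tet2 KO and at 38.7 and 37.5 TPM in WT (log2 fold change -0.04, SE 0.0643, limma adjusted p = 0.554). The libraries of the 2 genotypes overlapped for Tfe3, and for Tfeb the Tet2 KO libraries lay just under the WT libraries. With median-scaled values both were called lower, at -0.27 on the log2 scale for Tfeb (limma adjusted p = 0.00267) and at -0.29 for Tfe3 (limma adjusted p = 0.00271). RNA levels of these factors do not measure their protein, phosphorylation or place in the cell.

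The promoters of the members show where the DNA element of these factors occurs, so they are printed before the values of the other genes. The letters CACGTG, the core of the CLEAR element that TFEB and TFE3 bind, were searched in windows of 300 bases, 250 before and 50 after each gene start, taken from RefSeq on GRCm38.p6. CACGTG reads the same on both strands. At least 1 window was at hand for 49 members, with 58 windows in all, and CACGTG occurred in the windows of 14 of these 49 members (28.6%). Over all 27025 gene symbols with a window it occurred in 8.09%, and counted by window it was in 24.1% of the members' windows and 7.15% of all 32851 windows. The longer palindrome TCACGTGA, which contains CACGTG, occurred in 7 of the 49 members (14.3%) and in 1.12% of all symbols. The match nearest to the gene start is shown here for each of the 14 members, 5′ to 3′ on the gene's strand, with CACGTG in capitals.
Atp6v1a, chr16:44139376-44139399, minus strand: tttttaaatCACGTGataggctta
Atp6v0b, chr4:117887333-117887356, minus strand: tcggcgcatCACGTGcgccggtca
Atp6v0d1, chr8:105566053-105566076, minus strand: tactgcggtCACGTGagacgcggt
Atp6v0e, chr17:26676390-26676413, plus strand: cgcgccgatCACGTGagcctctgt
Ctsa, chr2:164833769-164833792, plus strand: gcagatgctCACGTGaccagagct
Ctsd, chr7:142387911-142387934, minus strand: cccgcgtctCACGTGacccgttga
Ctsf, chr19:4855077-4855100, plus strand: cccgtggtcCACGTGcctcgcgta
Ctsl, chr13:64370742-64370765, minus strand: gttagaagcCACGTGctgatctaa
Lgmn, chr12:102439127-102439150, minus strand: aatgtctgtCACGTGgtccatttt
Gaa, chr11:119267814-119267837, plus strand: ctgtgcgatCACGTGtttgactct
Gla, chrX:134601185-134601208, minus strand: gatctcggtCACGTGagcaactct
Glb1, chr9:114401021-114401044, plus strand: cttctgagtCACGTGgcctacaga
Lamp1, chr8:13159137-13159160, plus strand: tgaccacatCACGTGcggaacgga
Mcoln1, chr8:3500465-3500488, plus strand: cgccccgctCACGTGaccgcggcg

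Members with CACGTG in the window were called in both directions on either scale. Of these 14, 6 were called higher in Tet2 KO (Ctsd, Ctsf, Gaa, Gla, Glb1 and Mcoln1), 5 lower (Atp6v0b, Atp6v0e, Ctsa, Ctsl and Lgmn) and 3 not (Atp6v1a, Atp6v0d1 and Lamp1), with a median log2 fold change of -0.0062, beside 54.4% higher and 19.5% lower among all genes. With median-scaled values the same 14 were 3 higher, 8 lower and 3 not called, beside 32.7% higher and 34.8% lower among all genes. Of the 29 tested members with a window and no match, 4 were higher, 10 lower and 15 not called, with a median of -0.04, or 1, 25 and 3 with median-scaled values. A match is only a run of letters in this window and shows no binding. The windows of Ctsd, the most abundant member, of Lamp1, with 4 matches, and of Ctss, with 0 matches and the largest fall among the cathepsins, are printed whole with each CACGTG in capitals.
Ctsd, chr7:142387778-142388077, minus strand: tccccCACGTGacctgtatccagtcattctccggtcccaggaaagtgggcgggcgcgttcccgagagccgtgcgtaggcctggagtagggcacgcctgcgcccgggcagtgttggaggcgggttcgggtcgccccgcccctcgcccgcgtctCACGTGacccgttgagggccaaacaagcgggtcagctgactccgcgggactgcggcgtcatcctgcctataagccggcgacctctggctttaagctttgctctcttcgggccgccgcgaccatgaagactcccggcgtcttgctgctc
Lamp1, chr8:13158911-13159210, plus strand: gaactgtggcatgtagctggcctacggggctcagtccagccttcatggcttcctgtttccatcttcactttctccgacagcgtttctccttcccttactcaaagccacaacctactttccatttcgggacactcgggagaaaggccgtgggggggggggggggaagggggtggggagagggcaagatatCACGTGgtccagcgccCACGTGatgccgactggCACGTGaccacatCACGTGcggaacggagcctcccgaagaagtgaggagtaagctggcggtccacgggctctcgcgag
Ctss, chr3:95526536-95526835, plus strand: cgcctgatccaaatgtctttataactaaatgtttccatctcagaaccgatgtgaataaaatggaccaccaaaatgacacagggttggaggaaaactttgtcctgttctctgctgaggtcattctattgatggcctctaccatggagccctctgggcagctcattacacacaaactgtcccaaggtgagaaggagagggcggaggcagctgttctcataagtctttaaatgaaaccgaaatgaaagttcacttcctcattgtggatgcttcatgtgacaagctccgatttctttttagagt
The first base of the matches lay 245 and 98 bases before the gene start in Ctsd, and between 61 and 15 bases before it in Lamp1. The window table holds no entry for Atp6ap1l, Atp6v0a2, Atp6v0c-ps2, Atp6v0d2, Atp6v1b2, Atp6v1c1, Atp6v1g1, Atp6v1h, Ctsb, Ctse, Ctsh, Galns or Asah1.

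In the proton pump, the RNA of 1 alternative subunit, Atp6v0d2, fell steeply in Tet2 KO, and the other subunits differed by much less. Of 26 V-ATPase rows, 19 were tested, and 7 did not reach the filter: Atp6ap1l, Atp6v0a4, Atp6v1b1, Atp6v1e2 and Atp6v1g3 were listed at 0 in all libraries, and Atp6v0e2 and Atp6v1c2 were at most at 0.08 TPM. Among those tested, 1 was higher, 10 lower and 8 not called, beside 54.4% higher and 19.5% lower among all genes. Their median log2 fold change was -0.13. Without the processed pseudogene Atp6v0c-ps2, 18 were tested, with 1 higher and 9 lower. With median-scaled values 0 of the 19 were higher and 18 lower, beside 32.7 and 34.8% of all genes. With quantile normalization 1 was higher and 12 lower, beside 3915 and 3741 of the 11452 genes tested.

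In the V1 sector, Atp6v1a, which encodes the catalytic A subunit, stood at 171 and 169 TPM in Tet2 KO and at 161 and 169.9 TPM in WT and was not called (log2 fold change 0.04, SE 0.0448, limma adjusted p = 0.415). With median-scaled values Atp6v1a was called lower (log2 fold change -0.21, limma adjusted p = 0.00222). Its partner in the catalytic ring, the B subunit, is encoded in these cells by Atp6v1b2, since Atp6v1b1 was listed at 0. Atp6v1b2 was at 181 and 186 TPM in Tet2 KO libraries, against 294 and 292 TPM in WT libraries. Both Tet2 KO libraries lay well below both WT libraries, a difference of 1.6-fold in mean TPM (log2 fold change -0.67, SE 0.0406, limma adjusted p = 3.64e-10). The A and B subunits alternate in the same ring, and the difference between the changes of their RNA was not tested.

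The peripheral stalks of V1 pair an E with a G subunit, and their RNA went in opposite directions on the deposited scale, where the rise of the G subunit gene was not called with median-scaled values. Atp6v1e1 was at 144 and 145 TPM in Tet2 KO libraries, against 204 and 193 TPM in WT libraries (log2 fold change -0.45, SE 0.0443, limma adjusted p = 1.21e-07). Atp6v1g1, the gene of the main G subunit, was at 341 and 319 TPM in Tet2 KO libraries, against 264 and 262 TPM in WT libraries (log2 fold change 0.33, SE 0.0416, limma adjusted p = 2.66e-06). It was the 1 V-ATPase gene called higher on the deposited scale (median-scaled log2 fold change 0.08, limma adjusted p = 0.195). Atp6v1f, the V1 gene with the highest mean TPM, encodes a subunit of the central rotor and was at 306 and 306 TPM in Tet2 KO libraries, against 342 and 326 TPM in WT libraries, a small fall (log2 fold change -0.13, SE 0.0395, limma adjusted p = 0.00858). The call of Atp6v1f was lost without WT replicate 1 (log2 fold change -0.09) and without an intensity trend (limma adjusted p = 0.0896). With median-scaled values Atp6v1f was lower by more (log2 fold change -0.38, limma adjusted p = 8.70e-05). The regulatory subunit genes Atp6v1c1 and Atp6v1h also fell, with log2 fold changes of -0.28 and -0.20, and the call of Atp6v1h was lost without WT replicate 2 (limma adjusted p = 0.0788). Atp6v1d, of the rotor, and the low-level Atp6v1g2 were not called on the deposited scale. With median-scaled values both were called lower (log2 fold changes -0.28 and -0.31, limma adjusted p = 0.00168 and 0.0164).

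In the V0 sector, Atp6v0d2 (chromosome 4, 19876841 to 19922605, minus strand, mm10) carried the largest difference of all members. It encodes an alternative form of the d subunit, which sits between V0 and the central stalk and is known from osteoclasts and macrophages. Its RNA was at 31.2 and 30.0 TPM in Tet2 KO libraries, against 203 and 216 TPM in WT libraries. The Tet2 KO libraries lay far below the WT libraries, 6.84-fold lower in mean TPM (log2 fold change -2.73, SE 0.0527, limma adjusted p = 2.01e-16). The ubiquitous form, Atp6v0d1, was at 208 and 218 TPM in Tet2 KO and at 232 and 223 TPM in WT and was not called on the deposited scale (log2 fold change -0.09, SE 0.043, limma adjusted p = 0.064). With median-scaled values Atp6v0d1 was called lower too (log2 fold change -0.34, limma adjusted p = 1.41e-04), where Atp6v0d2 was at -2.98. Added together, the 2 genes gave 239.6 and 248 TPM in Tet2 KO libraries, against 434 and 439 TPM in WT libraries. Atp6v0d2 made up 13.0 and 12.1% of that sum in Tet2 KO, against 46.6 and 49.2% in WT. With 2 libraries in each group an exact two-sided permutation test cannot give a p under 0.333, so these shares are given without a test.

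The a subunit, which anchors the stalks and steers the pump to its membrane, has several paralogues. Atp6v0a1 was at 143 and 156 TPM in Tet2 KO and at 149 and 150.5 TPM in WT and Atp6v0a2 at 21.7 and 22.3 TPM in Tet2 KO and at 21.4 and 23.2 TPM in WT, and neither was called on the deposited scale. Both were called lower with median-scaled values (log2 fold changes -0.25 and -0.26, limma adjusted p = 0.00105 and 0.00376). Tcirg1, which encodes the a3 form of osteoclasts and immune cells and is outside the symbol pattern, was at 171 and 188 TPM in Tet2 KO libraries, against 226 and 225 TPM in WT libraries (log2 fold change -0.33, SE 0.0472, limma adjusted p = 9.54e-06). Tcirg1 made up 51.0 and 51.2% of the summed a-subunit TPM in Tet2 KO and 57.0 and 56.5% in WT. Atp6v0e, which encodes a small subunit of V0, fell to 268 and 268 TPM in Tet2 KO libraries, against 399 and 396 TPM in WT libraries (log2 fold change -0.57, SE 0.0376, limma adjusted p = 1.10e-09), and Atp6v0b, of the proton-carrying ring, fell less (log2 fold change -0.18, SE 0.0408, limma adjusted p = 0.000673).

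The main subunit of the ring is encoded by Atp6v0c, and its value is uncertain because a processed pseudogene, Atp6v0c-ps2 (chromosome 6, 37806086 to 37806550, plus strand, mm10), is a close copy between which reads can be divided. Atp6v0c was at 368 and 466 TPM in Tet2 KO and at 464 and 466 TPM in WT and was not called (log2 fold change -0.17, SE 0.156, limma adjusted p = 0.428). Atp6v0c-ps2 was at 596 and 520.3 TPM in Tet2 KO and at 1120.2 and 1112 TPM in WT (log2 fold change -1.002, SE 0.0624, limma adjusted p = 7.19e-06). Of the 2 Tet2 KO libraries, the one with the lower Atp6v0c value had the higher pseudogene value. Their sum was steadier between libraries, at 964 and 986 TPM in Tet2 KO and 1584 and 1577 TPM in WT. Fitted as 1 row, a choice made after the data had been seen, the sum was lower in Tet2 KO (log2 fold change -0.70, SE 0.0314, limma adjusted p = 8.83e-12). The pseudogene made up 61.8 and 52.7% of the sum in Tet2 KO and 70.7 and 70.5% in WT. TPM are scaled for length, and the pseudogene has 465 exon bases where Atp6v0c has 3384. Reads assigned to the wrong row would therefore change the sum, so it is not a corrected value of Atp6v0c. Without Tet2 KO replicate 2, Atp6v0c alone was called lower (log2 fold change -0.34, limma adjusted p = 7.80e-06).

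The accessory protein genes moved little on the deposited scale. Atp6ap1, which encodes the Ac45 protein of the pump, was at 223 and 228 TPM in Tet2 KO and at 251 and 245 TPM in WT (log2 fold change -0.13, SE 0.0407, limma adjusted p = 0.00733). That call was lost without WT replicate 1 (log2 fold change -0.12) and without an intensity trend (limma adjusted p = 0.0713). With median-scaled values Atp6ap1 was lower by more (log2 fold change -0.39, limma adjusted p = 4.52e-05). Atp6ap2, the prorenin receptor gene, was at 163 and 147 TPM in Tet2 KO and at 156 and 160.1 TPM in WT and was not called (log2 fold change -0.03, SE 0.0507, limma adjusted p = 0.651), and with median-scaled values it was lower (log2 fold change -0.28, limma adjusted p = 0.00343).

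**Figure D2:**
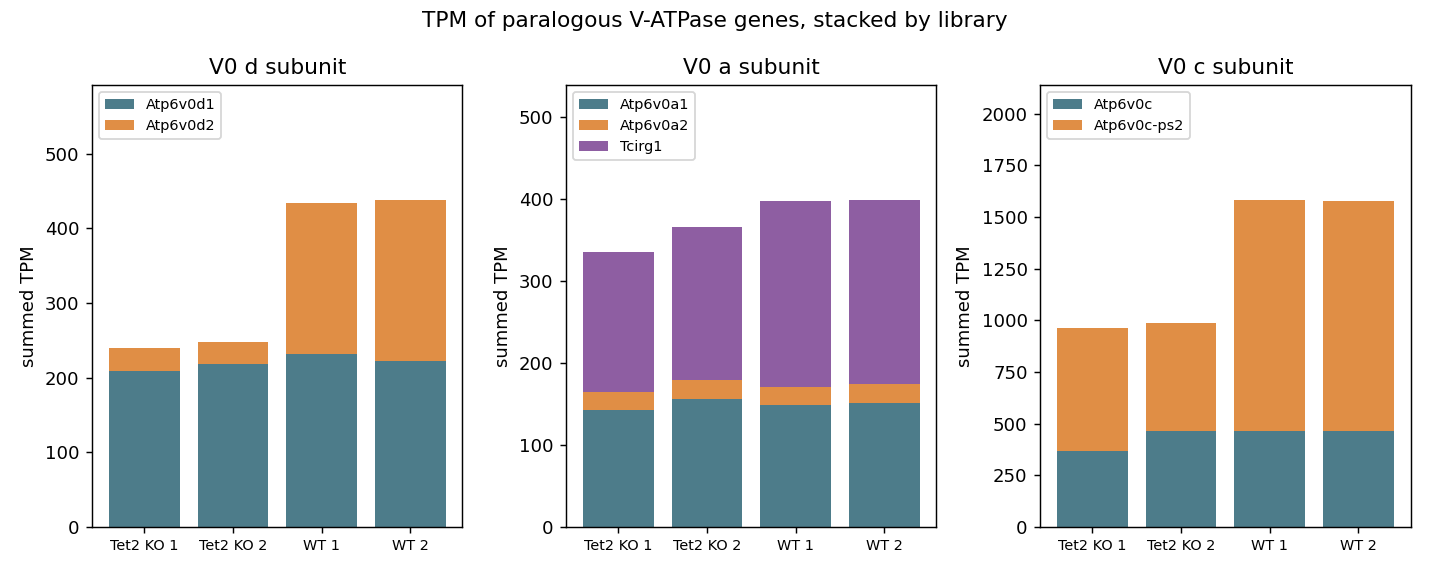
Summed TPM of genes that encode the same V0 subunit, stacked by library, for the d, a and c subunits, with the Tet2 KO libraries left of the WT libraries. The Atp6v0d2 part of the d subunit is small in both Tet2 KO libraries (13.0 and 12.1%) and near the size of the Atp6v0d1 part in WT (46.6 and 49.2%), while the Atp6v0d1 part stays between 208 and 232 TPM.

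Most cysteine cathepsin genes fell, while the aspartic ones were called higher on the deposited scale, where Ctsd, the main one, turned slightly negative with median or spike-in scaling and was more strongly positive with quantile normalization. All 12 genes of this role were tested, with 9 lower and 3 higher, beside 19.5% lower and 54.4% higher among all genes. Their median log2 fold change was -0.78. With median-scaled values 9 were lower, 1 higher and 2 not called, beside 34.8% lower and 32.7% higher among all genes. The 8 cysteine cathepsin genes summed to 1041 and 1043 TPM in Tet2 KO libraries, against 2058 and 2064 TPM in WT libraries. The 2 aspartic cathepsin genes summed to 7328 and 7557 TPM in Tet2 KO libraries, against 6658 and 6554 TPM in WT libraries. Ctsd alone made up 85.5 and 85.8% of the summed TPM of all 12 genes in Tet2 KO and 73.7 and 73.4% in WT.

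Ctss (chromosome 3, 95526786 to 95556403, plus strand, mm10) encodes cathepsin S, a protease of antigen-presenting cells that trims the invariant chain of MHC class II. It was at 133 and 124 TPM in Tet2 KO libraries, against 493 and 505 TPM in WT libraries, 3.89-fold lower (log2 fold change -1.95, SE 0.0435, limma adjusted p = 1.45e-15). Ctsh, which encodes an aminopeptidase cathepsin, was at 6.36 and 6.74 TPM in Tet2 KO libraries, against 20.4 and 23.3 TPM in WT libraries (log2 fold change -1.59, SE 0.0836, limma adjusted p = 6.07e-11). Lgmn encodes legumain, the asparaginyl endopeptidase that cuts other cathepsins to their mature chains. It was at 32.8 and 34.2 TPM in Tet2 KO libraries, against 97.5 and 97.8 TPM in WT libraries (log2 fold change -1.51, SE 0.0535, limma adjusted p = 4.28e-13). For each of these 3 genes the libraries of the 2 genotypes did not come near each other, and mean TPM was 3.89-fold, 3.33-fold and 2.91-fold lower in Tet2 KO.

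Ctsb, Ctsl and Ctsz fell as well, with smaller log2 fold changes than Ctss, Ctsh and Lgmn. Ctsb, a broadly expressed endopeptidase and carboxypeptidase gene, was at 304 and 321 TPM in Tet2 KO libraries, against 596 and 587 TPM in WT libraries (log2 fold change -0.92, SE 0.0388, limma adjusted p = 4.20e-12). Ctsl, a broadly expressed endopeptidase gene, was at 67.6 and 66.4 TPM in Tet2 KO libraries, against 131 and 130.3 TPM in WT libraries (log2 fold change -0.95, SE 0.0477, limma adjusted p = 3.27e-11). Ctsz, the most abundant cysteine cathepsin gene here, was at 473 and 467 TPM in Tet2 KO libraries, against 732 and 733 TPM in WT libraries (log2 fold change -0.64, SE 0.0347, limma adjusted p = 9.30e-11). Ctsb and Ctsl were 1.89-fold and 1.95-fold lower in mean TPM and Ctsz 1.56-fold, and in all 3 both Tet2 KO libraries lay below both WT libraries. Of the exon bases of Ctsl, 26.9% overlap a gene on the opposite strand in the annotation, and for Ctsb the share is 12.8%. Whether the counting used strand is not given in the sources used here, so reads of such partners could not be told apart.

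Ctsc encodes dipeptidyl peptidase I, which activates the serine proteases of neutrophil and mast cell granules. It was at 51.4 and 49.8 TPM in Tet2 KO libraries, against 75.4 and 75.4 TPM in WT libraries (log2 fold change -0.57, SE 0.0524, limma adjusted p = 6.56e-08). Ctsk, the collagen-degrading cathepsin of osteoclasts, was low, at 2.59 and 3.00 TPM in Tet2 KO libraries, against 7.98 and 7.70 TPM in WT libraries (log2 fold change -1.22, SE 0.102, limma adjusted p = 1.82e-08). Ctsa, which encodes a serine carboxypeptidase that also shields β-galactosidase and neuraminidase 1 in a complex, fell to 162 and 167 TPM in Tet2 KO libraries, against 206 and 206 TPM in WT libraries (log2 fold change -0.32, SE 0.0424, limma adjusted p = 3.77e-06).

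Only Ctsd, Ctse and Ctsf among the 12 were called higher. Ctsd (chromosome 7, 142375911 to 142388038, minus strand, mm10) encodes cathepsin D, the main aspartic protease of lysosomes, and was the most abundant of all members. It was at 7319.9 and 7548 TPM in Tet2 KO libraries, against 6652 and 6549 TPM in WT libraries, a small rise (log2 fold change 0.17, SE 0.0257, limma adjusted p = 1.62e-05). Its size and direction depend on the scale. The log2 fold change was -0.08 with median-scaled values (limma adjusted p = 0.0763), -0.12 with spike-in scaling (limma adjusted p = 7.04e-04) and 0.80 with quantile normalization (limma adjusted p = 6.98e-06). Of its exon bases 34.4% overlap an annotated gene on the same strand. Ctse, an aspartic protease gene of the endosome, was at 7.63 and 9.05 TPM in Tet2 KO libraries, against 6.66 and 5.11 TPM in WT libraries, and the call was lost with median-scaled values and without WT replicate 2 (limma adjusted p = 0.0519). Ctsf, a cysteine cathepsin gene, was at 3.44 and 4.53 TPM in Tet2 KO libraries, against 1.88 and 1.99 TPM in WT libraries, 2.06-fold higher (log2 fold change 0.76, SE 0.124, limma adjusted p = 4.01e-05), and remained higher with median-scaled values.

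**Figure D3:**
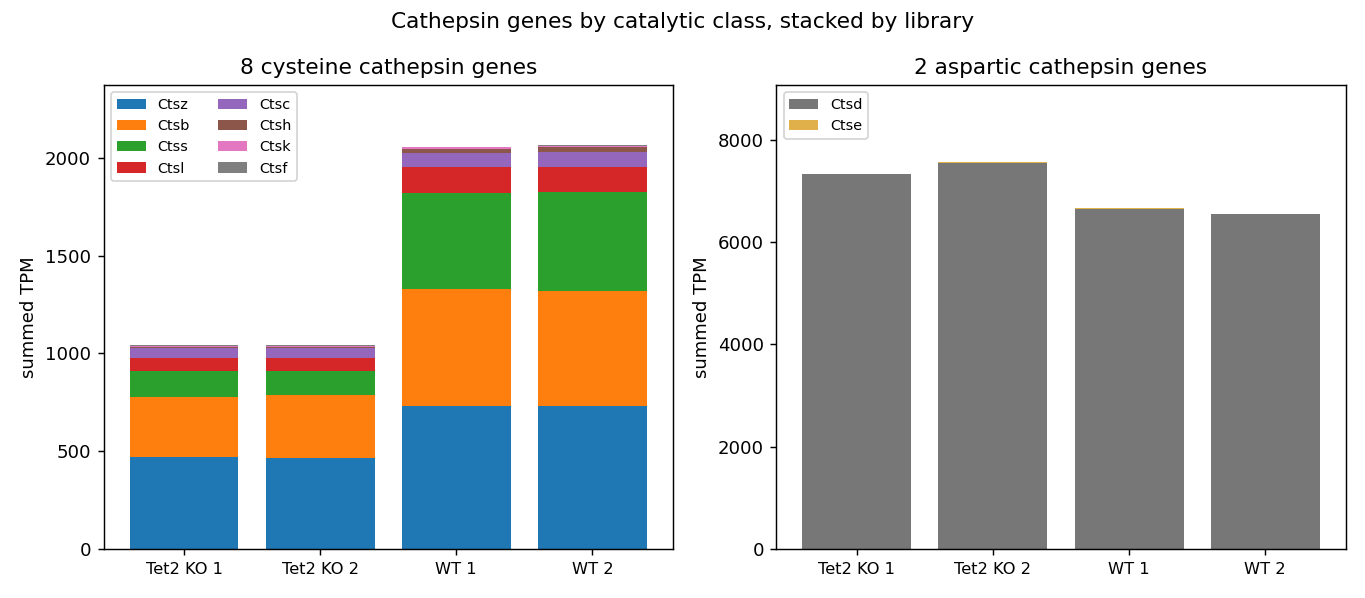
Summed TPM of the 8 cysteine cathepsin genes (left) and the 2 aspartic cathepsin genes (right), stacked by gene in each library, with Tet2 KO libraries left of WT libraries. The cysteine stacks reach 1041 and 1043 TPM in Tet2 KO and 2058 and 2064 TPM in WT, while the aspartic stacks, nearly all Ctsd, are somewhat higher in Tet2 KO on this deposited scale (Ctsd turns slightly lower with median or spike-in scaling and is higher still with quantile normalization).

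Markers of blood cell types differed between the genotypes as well. The counts of calls below stand beside 54.4% higher and 19.5% lower among all genes. Of 15 monocyte and macrophage markers, 11 were tested and 8 were lower and 2 higher. The whole list summed to 8469 and 8581 TPM in Tet2 KO libraries, against 20409.7 and 20411.2 TPM in WT libraries, and without Lyz2 the list summed to 894 and 928 TPM in Tet2 KO libraries, against 1179 and 1172 TPM in WT libraries. C1qa was listed at 0 in all libraries, and C1qb, C1qc and Cx3cr1 were at most at 0.61 TPM. Of 9 neutrophil markers 8 were lower and 1, Mpo, higher, with sums of 13313.5 and 12901.3 TPM in Tet2 KO libraries, against 29450.3 and 29275.7 TPM in WT libraries. Most of these sums was S100a8 and S100a9. S100a8 was at 5223 and 5018 TPM in Tet2 KO and at 14953 and 14792 TPM in WT. S100a9 was at 7633 and 7411 TPM in Tet2 KO and at 13326 and 13284 TPM in WT. Of 5 osteoclast markers 3 were tested, 2 lower and 1 higher, with sums of 2.20 and 2.03 TPM in Tet2 KO libraries, against 6.40 and 7.05 TPM in WT libraries, and Calcr was listed at 0 in all libraries. Of 4 mast cell markers 3 were tested, 2 higher and 1 lower, with sums of 5071 and 4885 TPM in Tet2 KO libraries, against 1739 and 1775 TPM in WT libraries. Nearly all of these sums was Cpa3, at 5030 and 4847 TPM in Tet2 KO and at 1716 and 1750 TPM in WT. Tpsb2 was also higher, Mcpt4 was lower, and Fcer1a was at most at 0.81 TPM. Cd68 and Acp5 of these lists are also in the list of other lysosome genes. The part of these markers in the lysosome results, Atp6v0d2 and the cathepsins included, was not tested. The 6 lymphocyte and 6 stromal markers summed to at most 0.18 and 0.37 TPM in any library. The haematopoietic and leukaemia markers Ptprc, Spi1, Itgam, Runx1, Runx1t1 and Kit were all present, with 3 higher, 2 lower and 1 not called. Among those higher, Kit was at 201.19 and 209.41 TPM in Tet2 KO libraries, against 11.63 and 11.99 TPM in WT libraries. It was 17.4-fold higher in mean TPM (log2 fold change 4.01, SE 0.0551, limma adjusted p = 7.49e-18). The part of Kit in the lysosome results was not tested either.

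The other hydrolases went in both directions on the deposited scale. Of the 15 enzymes, 6 rose, 3 fell and 6 were not called, beside 54.4% higher and 19.5% lower among all genes. The enzymes had a median log2 fold change of 0.08. Of the 3 cofactors, Psap fell and Gm2a and Grn were not called. With median-scaled values 2 of these 18 genes were higher (Gaa and Glb1), 12 lower and 4 not called, beside 32.7% higher and 34.8% lower among all genes. With quantile normalization 3 were higher and 6 lower.

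Gaa (chromosome 11, 119267887 to 119285454, plus strand, mm10) encodes acid α-glucosidase, which degrades glycogen in lysosomes. It was at 102 and 108 TPM in Tet2 KO libraries, against 55.4 and 52.5 TPM in WT libraries, 1.94-fold higher in mean TPM (log2 fold change 0.94, SE 0.0535, limma adjusted p = 1.63e-10). Glb1, the acid β-galactosidase gene, was at 253 and 261 TPM in Tet2 KO libraries, against 172 and 169.6 TPM in WT libraries (log2 fold change 0.59, SE 0.0415, limma adjusted p = 2.44e-09). For both enzymes each Tet2 KO library was above each WT library, and both rises held with median-scaled values, at 0.69 and 0.34. Glb1 protein stands in the complex with the products of Ctsa and Neu1, and the RNA of Neu1, the neuraminidase that removes sialic acid, fell to 46.2 and 49.4 TPM in Tet2 KO libraries, against 62.2 and 61.8 TPM in WT libraries (log2 fold change -0.37, SE 0.0555, limma adjusted p = 1.73e-05).

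Gla and Tpp1 had small rises that turned with the scale. Gla, which encodes α-galactosidase A, was at 87.2 and 86.8 TPM in Tet2 KO libraries, against 74.4 and 73.5 TPM in WT libraries (log2 fold change 0.23, SE 0.0492, limma adjusted p = 0.000486). Tpp1, which encodes a tripeptidyl peptidase, was at 114 and 112 TPM in Tet2 KO libraries, against 96.5 and 97.8 TPM in WT libraries (log2 fold change 0.22, SE 0.0466, limma adjusted p = 0.000482). With median-scaled values they had log2 fold changes of -0.02 and -0.03, and neither was called. Idua, the iduronidase of heparan and dermatan sulfate, and Smpd1, the acid sphingomyelinase, were 1.31-fold and 1.29-fold higher in mean TPM, and their calls too were lost with median-scaled values (limma adjusted p = 0.102 and 0.145).

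Gusb, which encodes β-glucuronidase, had the largest fall of this role. It was at 159 and 163 TPM in Tet2 KO libraries, against 245 and 245 TPM in WT libraries (log2 fold change -0.61, SE 0.0415, limma adjusted p = 1.71e-09), with the 2 genotypes well apart. Galns, a sulfatase gene of keratan sulfate breakdown, fell to 25.6 and 27.2 TPM in Tet2 KO libraries, against 35.0 and 34.6 TPM in WT libraries (log2 fold change -0.38, SE 0.0607, limma adjusted p = 2.77e-05). The enzymes not called were Hexa, Ids, Manba, Man2b1, Asah1 and Ppt1, with log2 fold changes from -0.12 (Ids) to 0.10 (Manba). Each of these 6 was lower with median-scaled values.

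Among the cofactors, Psap encodes the precursor of the saposins, small proteins that lift sphingolipids out of membranes for their hydrolases. It was the second most abundant member, at 1842 and 1931 TPM in Tet2 KO libraries, against 2518 and 2521 TPM in WT libraries (log2 fold change -0.42, SE 0.031, limma adjusted p = 4.44e-09). Grn, which encodes progranulin, was at 986 and 1044 TPM in Tet2 KO and at 969 and 970.1 TPM in WT and was not called (log2 fold change 0.07, SE 0.0352, limma adjusted p = 0.101). It was called higher without Tet2 KO replicate 1 (log2 fold change 0.11, limma adjusted p = 0.0108) and after quantile normalization (0.26 on the log2 scale, limma adjusted p = 1.13e-04), and lower with median-scaled values (log2 fold change -0.19, limma adjusted p = 0.00232). Gm2a, the activator protein gene of GM2 ganglioside breakdown, was at 144 and 144 TPM in Tet2 KO and at 142 and 143 TPM in WT and was not called. With median-scaled values Gm2a was called lower (log2 fold change -0.24, limma adjusted p = 7.65e-04).

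**Figure D4:**
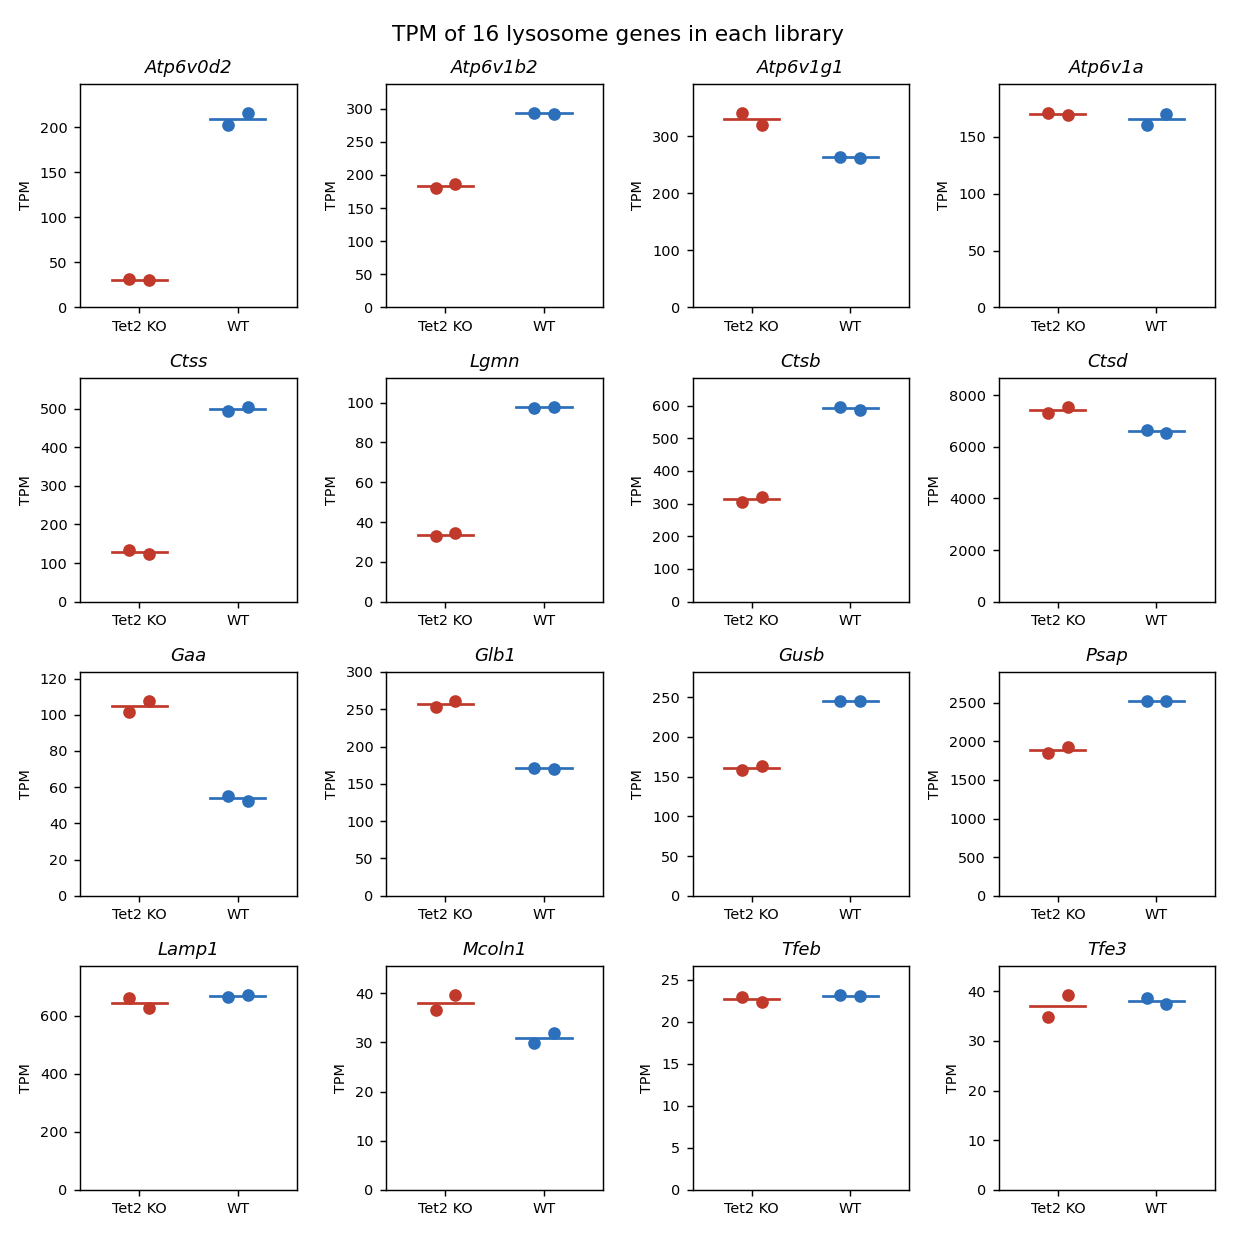
TPM of 16 lysosome genes in each library, on linear axes from 0, with Tet2 KO in red at the left and WT in blue at the right of each panel. Points are libraries and horizontal lines the means of 2 libraries. The genotypes are far apart for Atp6v0d2, Ctss and Lgmn and nearly level for Atp6v1a, Lamp1, Tfeb and Tfe3.

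Of the membrane protein genes, Lamp1 and Lamp2 were not called and Scarb2 and Mcoln1 were called higher on the deposited scale. Lamp1, one of the major glycoproteins of the lysosomal membrane, was at 661 and 628 TPM in Tet2 KO and at 666 and 671 TPM in WT and was not called (log2 fold change -0.05, SE 0.0364, limma adjusted p = 0.193). Lamp2, its relative that also serves chaperone-mediated autophagy, was at 235 and 224 TPM in Tet2 KO and at 239.7 and 248 TPM in WT and was not called (log2 fold change -0.09, SE 0.0424, limma adjusted p = 0.0739). Both were called lower without Tet2 KO replicate 1 (limma adjusted p = 0.0315 for Lamp1 and 0.0163 for Lamp2) and lower with median-scaled values. Quantile normalization instead put Lamp1 higher in Tet2 KO (log2 fold change 0.15, limma adjusted p = 0.00532). Scarb2, which encodes LIMP-2, the carrier of β-glucocerebrosidase, was at 40.3 and 40.6 TPM in Tet2 KO libraries, against 30.1 and 30.5 TPM in WT libraries (log2 fold change 0.40, SE 0.0572, limma adjusted p = 9.12e-06). Mcoln1, the gene of the lysosomal calcium channel TRPML1, was at 36.6 and 39.6 TPM in Tet2 KO libraries, against 30.0 and 31.9 TPM in WT libraries (log2 fold change 0.29, SE 0.0626, limma adjusted p = 0.000538). Scarb2 was still called higher with median-scaled values (0.16 on the log2 scale) but not with spike-in scaling (limma adjusted p = 0.139), and Mcoln1 was called with neither.

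Lysosome genes outside the members also went both ways. Of 40 such genes, 37 were tested, with 17 higher, 13 lower and 7 not called and a median log2 fold change of 0.04, beside 54.4% higher and 19.5% lower among all genes. All 40 summed to 5380 and 5480 TPM in Tet2 KO libraries, against 4941 and 4879 TPM in WT libraries. Cd63 alone was at 1819 and 1796 TPM in Tet2 KO and at 1363 and 1273 TPM in WT. With median-scaled values 9 of the 37 were higher and 20 lower, beside 32.7 and 34.8% of all genes. Among the 8 with the largest absolute log2 fold change, enzymes of glycan and sphingolipid breakdown went both ways. Sgsh, the sulfamidase of heparan sulfate, was at 16.3 and 17.7 TPM in Tet2 KO libraries, against 5.36 and 5.33 TPM in WT libraries (log2 fold change 1.51, SE 0.0834, limma adjusted p = 1.19e-10). Galc, the galactosylceramidase gene, was at 16.9 and 16.4 TPM in Tet2 KO libraries, against 6.12 and 6.11 TPM in WT libraries (log2 fold change 1.31, SE 0.0801, limma adjusted p = 4.13e-10). Arsb, the arylsulfatase B gene of dermatan sulfate breakdown, fell to 6.18 and 5.36 TPM in Tet2 KO libraries, against 9.14 and 9.24 TPM in WT libraries (log2 fold change -0.59, SE 0.0932, limma adjusted p = 2.70e-05).

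Transporters were among the same 8. Slc17a5, which encodes the sialic acid exporter of lysosomes, was at 30.7 and 29.6 TPM in Tet2 KO libraries, against 16.2 and 16.5 TPM in WT libraries (log2 fold change 0.85, SE 0.064, limma adjusted p = 5.42e-09). Npc1, the cholesterol exporter gene, was at 129 and 135 TPM in Tet2 KO libraries, against 82.6 and 84.8 TPM in WT libraries (log2 fold change 0.65, SE 0.048, limma adjusted p = 4.13e-09). Hgsnat, which acetylates heparan sulfate across the membrane, was 1.74-fold higher in mean TPM and the low-level Laptm4b 2.07-fold. Acp5, the tartrate-resistant phosphatase gene of osteoclasts and macrophages, had the largest fall of the 8, to 0.06 and 0.19 TPM in Tet2 KO libraries, against 2.55 and 2.14 TPM in WT libraries (log2 fold change -1.57, SE 0.136, limma adjusted p = 2.92e-08).

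Relatives of Tfeb and genes of the machinery that controls it were called at shares close to those of all genes. Of 17 tested, 9 were higher and 4 lower (54.4 and 19.5% of all genes), and 6 and 6 with median-scaled values (32.7 and 34.8% of all genes). Tfec, the myeloid member of the Tfeb family, was at 29.1 and 28.7 TPM in Tet2 KO libraries, against 74.5 and 76.2 TPM in WT libraries, 2.61-fold lower (log2 fold change -1.35, SE 0.0548, limma adjusted p = 2.51e-12), while Mitf was at 16.3 and 14.9 TPM in Tet2 KO and at 12.9 and 14.6 TPM in WT and was not called (log2 fold change 0.17, SE 0.0804, limma adjusted p = 0.0665). Flcn, which encodes folliculin, a regulator of the Rag GTPases that recruit TFEB to the lysosome, was at 49.7 and 54.1 TPM in Tet2 KO libraries, against 31.6 and 30.8 TPM in WT libraries (log2 fold change 0.71, SE 0.06, limma adjusted p = 1.99e-08). Its partner genes Fnip1 and Fnip2 were 1.46-fold and 1.3-fold higher (limma adjusted p = 8.38e-07 and 5.83e-06). Of the 5 Ragulator genes Lamtor1 to Lamtor5, which anchor the Rag GTPases, 1 was higher, 3 lower and 1 not called.

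Most inhibitors of cysteine cathepsins were lower as well. Of 6 tested, 5 were lower and 1 higher, beside 19.5% lower and 54.4% higher among all genes. With median-scaled values 5 were lower and 1 not called, beside 34.8% lower and 32.7% higher among all genes. Their sum was 5816.5 and 5604 TPM in Tet2 KO libraries, against 17393.2 and 17264.6 TPM in WT libraries. The 1 called higher was Cst7 (log2 fold change 0.15, limma adjusted p = 0.00394), which was called lower with spike-in scaling (-0.14, limma adjusted p = 0.00784). Cst3, the cystatin C gene, was at 285 and 279 TPM in Tet2 KO libraries, against 489 and 486 TPM in WT libraries (log2 fold change -0.79, SE 0.0372, limma adjusted p = 1.58e-11). Cstb, the stefin B gene, was at 634 and 653 TPM in Tet2 KO libraries, against 994 and 981 TPM in WT libraries (log2 fold change -0.62, SE 0.0342, limma adjusted p = 1.19e-10). The Stfa1, Stfa2 and Stfa3 genes make up most of the sum and are close copies, so their single values are uncertain.

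**Figure D5:**
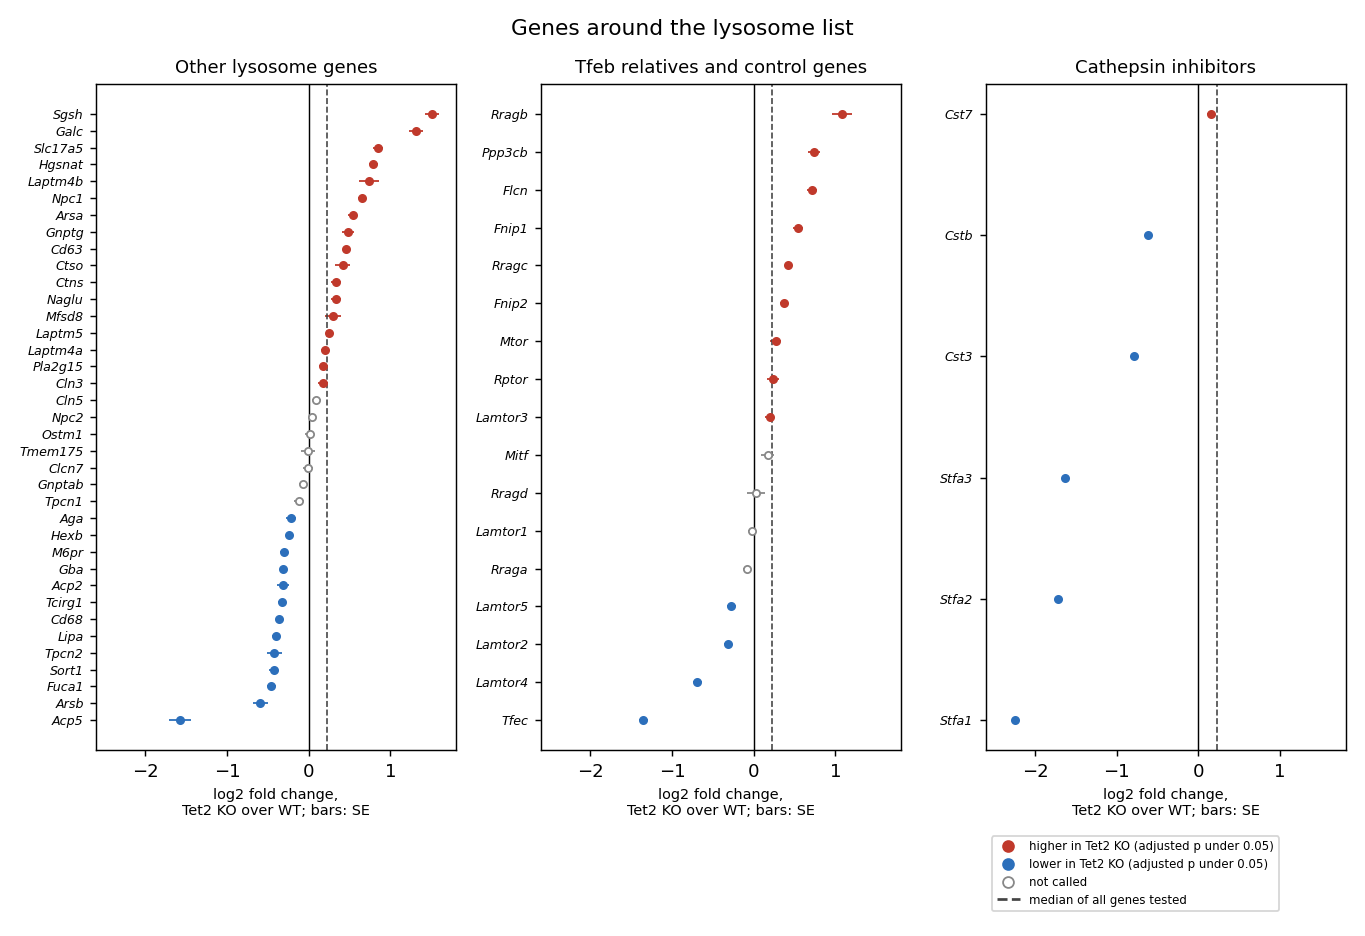
Log2 fold change, Tet2 KO over WT on the log2(TPM + 1) scale, of 37 tested lysosome genes outside the members (left), 17 genes of the Tfeb family and its control (middle) and 6 cathepsin inhibitor genes (right). Bars are standard errors, colours mark the calls and the dashed line is the median of all genes, 0.23. Sgsh and Galc lie at the high end and Acp5 at the low end of the left panel, Tfec at the low end of the middle panel, and 5 of the 6 inhibitors left of 0.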

How the data were processed

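The labels' protocols give QIAzol for RNA extraction and a KAPA stranded kit for the mRNA libraries. STAR, RSEM and mm10 are named, without versions, in the submitters' processing notes. The authors deposited TPM for 24497 gene rows and for ERCC spike-ins, which were left out of the tests. TPM are shares of a fixed total and keep no depth, so no counting interval was computed. The annotation and any filters of the authors are not stated.

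The 2 Tet2 KO and 2 WT libraries were compared on log2(TPM + 1) with limma 3.58.1 in R 4.3.3 (statmod 1.5.0), using an intensity trend and robust variances. The 11452 genes tested had 1 TPM or more in 2 or more libraries. P-values are two-sided and Benjamini-Hochberg adjusted over all genes tested, with a threshold of 0.05. Fold changes named log2 are on this scale, where changes of low genes are understated, and folds without log2 are ratios of mean TPM. The steps were checked on simulated data. The members and gene lists were chosen with earlier results of these data known. Some genes of those lists are not reported here.

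By a written rule, library values and tests are given for Tfeb and Tfe3, the 2 most abundant members of each role, called members with an absolute log2 fold change of at least 0.5, called members whose direction turned after median-ratio scaling, and 8 other lysosome genes. Other genes named with values were chosen after their values were seen. The alternatives were other pseudocounts, filters, scalings and variance settings, a replicate block, and leaving out each library. The sum of Atp6v0c and Atp6v0c-ps2 was added after seeing the data. Positions and overlaps are from GENCODE M21 on mm10, and promoter windows from RefSeq on GRCm38.p6. Plots were made with matplotlib 3.10.9 under Python 3.11.15.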

Additional observations from a re-analysis of the deposited data

How the results depend on the processing

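The scale decided most of what changed. After median-ratio scaling 3743 genes were higher and 3982 lower, with quantile normalization 3915 and 3741, and with spike-in scaling 3394 and 4324, in place of 6225 and 2238. Median-ratio and spike-in scaling put the all-gene median of the log2 fold change at -0.00389 and -0.0440, in place of 0.23, and no other cause of these changes was tested. Of the lysosome members 4 were higher and 43 lower with median-ratio scaling, and 3 and 43 with spike-in scaling, in place of 12 and 23. With quantile normalization the members were 8 higher and 29 lower. The V-ATPase genes became 0 higher and 18 lower (median-ratio scaling) and 0 and 17 with spike-in scaling, in place of 1 and 10. Quantile normalization gave 1 and 12. Cathepsin and legumain genes called higher became 1 under median-ratio and spike-in scaling and 2 with quantile normalization, in place of 3. Other hydrolase and cofactor genes became 2 higher and 12 lower under median-ratio and spike-in scaling, in place of 6 and 4. With quantile normalization 3 were higher and 6 lower. Fold changes turned negative after median-ratio scaling and with spike-in scaling for Ctsd (-0.0813 and -0.125), Gla (-0.0180 and -0.0609), Tpp1 (-0.0306 and -0.0736) and Grn (-0.19 and -0.23), while with quantile normalization Ctsd and Grn were more strongly positive (0.80 and 0.26, limma adjusted p = 6.98e-06 and 1.13e-04). Lamp1 turned positive with quantile normalization (0.15). Acp5 could not be tested without either WT library. Leaving out 1 library at a time moved Atp6ap2 from -0.10 to 0.05, Atp6v0c from -0.34 to 0.0044 and Tfe3 from -0.127 to 0.0402, and kept the counts of members between 11 and 13 higher and between 21 and 25 lower. Of the V-ATPase genes between 8 and 12 were then lower.

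Pseudocounts of 0.1 and 5, no filter, a filter of 5 TPM and no robust estimation changed no call of the 52 genes followed. With a filter of 5 TPM, 49 of them were tested, leaving out Ctsf, Laptm4b and Acp5. Without the intensity trend 2 calls were lost, and without the spike-in rows Grn became called higher (limma adjusted p = 0.0459). The labels give both genotypes the replicate numbers 1 and 2 without saying that a number marks a shared source, and deviations of same-numbered libraries had a correlation of -0.056 over 11452 genes. With the replicate block 6179 genes were higher and 2211 lower, 12 and 23 members, and no call of the 52 genes changed. Depth is unknown, and 2 libraries per genotype limit the precision.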

Other observations

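Enzymes that take heparan sulfate apart, a set of 6 put together after the values had been seen and given without a test of the set, were called in both directions, at shares near those of all genes. Of Ids, Idua, Sgsh, Hgsnat, Naglu and Gusb, 4 were called higher in Tet2 KO, 1 lower and 1 not, beside 54.4% higher and 19.5% lower among all genes. Sgsh was 3.19-fold, Hgsnat 1.74-fold and Idua 1.31-fold higher in mean TPM. Naglu, which removes N-acetylglucosamine, was at 41.4 and 44.8 TPM in Tet2 KO libraries, against 33.5 and 34.6 TPM in WT libraries (limma adjusted p = 1.19e-04). Gusb fell, and Ids was at 3.05 and 2.46 TPM in Tet2 KO and at 2.95 and 3.17 TPM in WT. With median-scaled values 2 of the 6 were higher and 2 lower, beside 32.7 and 34.8% of all genes.

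The genes of the Rag GTPases and of folliculin with its partners, a set also put together after the values had been seen and given without a test of the set, stand here beside the Ragulator genes. Of Rraga, Rragb, Rragc, Rragd, Flcn, Fnip1 and Fnip2, 5 were higher and 0 lower (54.4 and 19.5% of all genes), and with median-scaled values 5 were higher and 1 lower (32.7 and 34.8% of all genes). Of the 5 Ragulator genes 3 were lower and 1 higher, and with median-scaled values 4 were lower and 0 higher. Lamtor4 fell to 63.2 and 64.6 TPM in Tet2 KO libraries, against 109.55 and 98.16 TPM in WT libraries. The difference between these 2 sets was not tested.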
